A study of Mus musculus with 18 samples.

Results

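Solute carriers are membrane transporters, named by the prefix Slc and a family number, and their RNA was measured here in mouse adrenal glands, across sex, castration and loss of the receptor gene Ephb6. The genes were chosen by measured detection: a gene was taken when its symbol began with Slc and a digit and at least 1 of its probes had a detection p-value under 0.01 on 3 or more of the 18 arrays. Each gene was then read by the brightest such probe. Slc6a2, Slc18a1 and Slc18a2, the carriers of catecholamines, were left out. Of 353 such genes with a probe of a single gene symbol, 183 met the rule, out of 10375 genes tested in all, and 170 were not detected on 3 arrays. Just inside it lay Slc12a1, detected on 3 arrays at a mean bead signal of 154, Slc15a2 on 4 arrays at 149.8 and Slc35f2 on 4 arrays at 151. Just outside it lay 7 genes detected on 2 arrays, of which Slc22a23 had a mean bead signal of 157, Slc20a1 of 153 and Slc38a1 of 152. Of the 183 genes, 126 were detected on all 18 arrays, 51 had more than 1 detected probe, and 0 were detected in 1 group only. Some carry the name without being membrane carriers: Slc9a3r1 and Slc9a3r2 encode scaffold proteins that bind transporters.

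All mice were of strain C57BL/6N and 2 months old, and total RNA of adrenal glands was hybridised to Illumina bead arrays. The 6 groups, of 3 arrays each, were wild-type (WT) and Ephb6 knockout (KO) intact males, WT and KO females, and WT and KO castrated males. How Ephb6 was disrupted, how long after castration the glands were taken and whether the 3 samples of a group came from separate animals are not stated by the labels. The p-values therefore measure the spread between samples, which may be technical.

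Solute carriers move ions, metals, sugars, amino acids, nucleotides, vitamins and drugs across membranes, either down a gradient or coupled to the movement of another ion. Most sit in the plasma membrane, while the SLC25 family lies mainly in the inner membrane of mitochondria and the SLC35 family in the Golgi apparatus and endoplasmic reticulum. The adrenal gland joins a steroid-producing cortex, whose steroid synthesis starts and ends in mitochondria, to a medulla of chromaffin cells that store and release catecholamines.

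On 17 arrays the mean bead signal was 446 to 640 with 34.6% to 37.9% of probes detected, and castrated KO array 1 was dimmer, at 244 and 27.8%. That array and female KO array 1 also correlated least with the others of their groups, at 0.957 and 0.970. Ephb6 was lower in the knockout over the 3 conditions (log2 difference -1.14, SE 0.15, adjusted p = 0.00486 in limma), and its probe was detected on 2, 1 and 0 of the 3 KO arrays of males, females and castrated males. All 6 cortex markers were detected, as were 5 of 5 chromaffin markers on the array. The 3 markers of the X-zone, the inner cortical layer of young and female mice, summed to 57.9 to 74.9 on the intact male arrays, 21252 to 43674 on the female arrays and 20971 to 28472 on the castrated arrays. The 6 endothelial markers summed to 11316 to 14623 on WT male arrays and 9205 to 9810 on WT castrated arrays. Zona glomerulosa (outer cortex) markers summed to 8841 to 13489 on WT male arrays and 6564 to 9193 on WT castrated arrays. At an adjusted p under 0.05 in limma, 2 of these 4 were lower in females of each genotype. After castration 1 was lower in WT and 2 in KO, while 2 and 5 of the 6 cortex markers were higher. Of the 6 liver markers on the array, Alb, Apoa1, Serpina1a and Fgb were not detected. The 2 detected ones, Ttr and Apoa2, summed to 37.6 to 52.4 on WT male arrays and 65.3 to 627 on WT castrated arrays. The 627 belonged to WT castrated array 2 alone, where they read 8.11 and 8.58 in log2 intensity. In KO the ranges of intact and castrated males overlapped. Neither marker passed that adjusted p between the sexes or after castration, in either genotype. The part of any differences in cell make-up in the results below was not tested. In whole-gland RNA, fewer cells of a type and less RNA per cell cannot be told apart.

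Solute carrier genes differed both between the sexes and after castration, and 28 and 33 of them did so in the same direction in both genotypes. Among them Slc7a4 was lower in females and castrated males, Slc24a3 higher in females and Slc25a25 higher in castrated males. The threshold was an adjusted p of 0.05 in limma, with adjustment over all 10375 genes, and genes below it are said to have passed. All differences are on the log2 scale, with their standard error (SE) from the fit, and rest on 3 arrays a group. Between WT females and WT intact males 36 of the 183 genes passed (19.7%), against 10.1% of all genes tested: 16 were higher in females (8.74%, all genes 5.3%) and 20 lower (10.9%, all genes 4.83%). In the knockout 33 passed (18%, all genes 10.3%), 17 higher and 16 lower (all genes 5.54% and 4.79%). Between WT castrated and WT intact males 39 passed (21.3%, all genes 10.7%), 16 higher and 23 lower (all genes 4.62% and 6.1%). In the knockout 48 passed (26.2%, all genes 17.6%), 21 higher and 27 lower (all genes 7.46% and 10.1%). Of the 126 genes detected on every array, 30, 28, 32 and 39 passed in these 4 comparisons in turn. The matching share over all genes detected on every array was not computed, so these counts have no background to be set against. The WT sex count was 22 without WT female array 2 or WT male array 2 and 23 without WT female array 3. The WT castration count was 18 without WT castrated array 1, 24 without WT castrated array 3, 25 without WT male array 2 and 21 without WT male array 3.

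The WT and KO versions of a comparison share no arrays. The sex difference passed in the same direction in both genotypes for 28 of the 183 genes (15.3%, all genes 6.93%), 14 higher and 14 lower in females (all genes 3.69% and 3.24%), and these are 77.8% of the WT and 84.8% of the KO calls. The castration difference did so for 33 genes (18%, all genes 7.48%), 16 higher and 17 lower in castrated males (all genes 3.44% and 4.04%), which are 84.6% of the WT and 68.8% of the KO calls. Across the 183 genes, which are not independent of each other, the log2 differences of WT and KO correlated at r = 0.87 (Spearman's rho 0.79) for sex and r = 0.83 (rho 0.78) for castration. Over all 10375 genes the same r was 0.82 and 0.77. The castration difference of WT and the sex difference of KO, which share no arrays either, correlated at r = 0.80 over the 183 genes and 0.74 over all genes. Median scaling of the arrays in place of quantile normalization kept the sign of every named difference but left fewer calls: 12 of the 36, 12 of the 33, 12 of the 39 and 28 of the 48, while its own calls were split 4 higher and 8 lower for sex in WT and 4 higher and 35 lower for castration in KO.

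**Figure D1:**
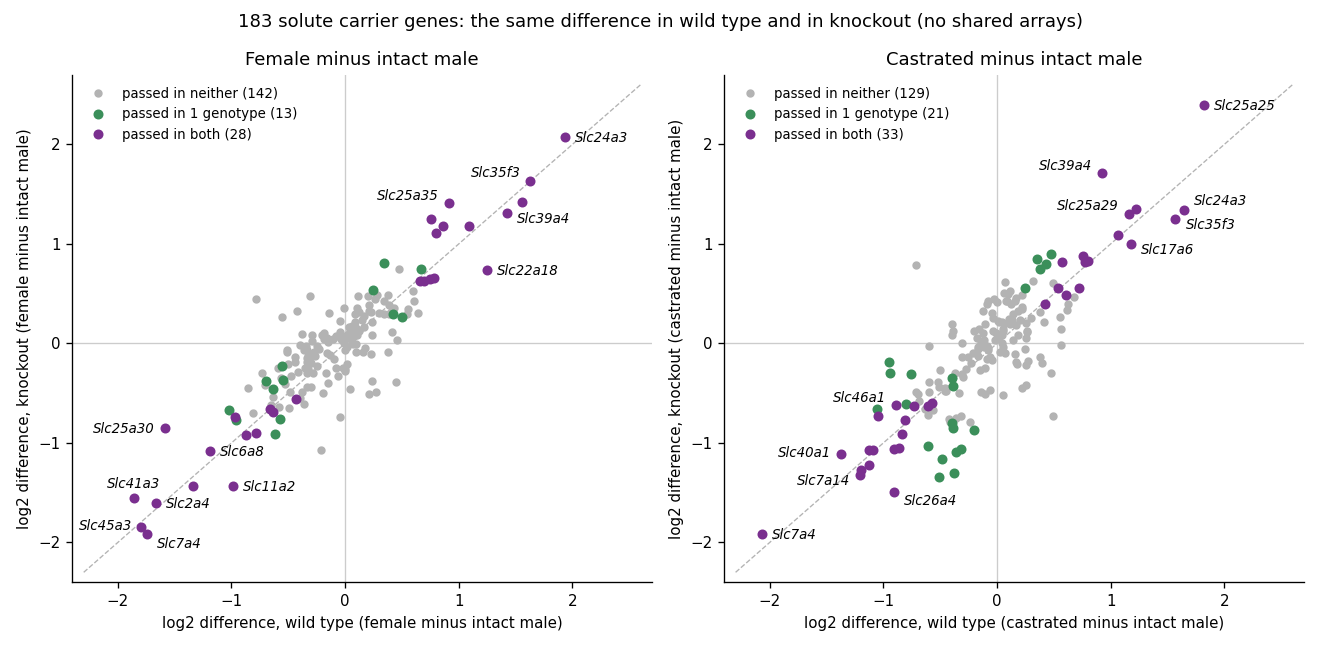
Each point is 1 of 183 solute carrier genes, placed by its log2 difference in wild type (x axis) and in Ephb6 knockout (y axis), for females minus intact males (left) and castrated minus intact males (right); the dashed line marks equal differences. Purple points passed in both genotypes (28 and 33 genes), green points in 1 genotype (13 and 21), grey points in neither, and the purple points lie along the dashed line.

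The amino acid carriers held Slc7a4, the gene with the largest fall in 3 of these 4 comparisons (Slc41a3 and Slc45a3 fell more in WT females). Slc7a4, a relative of the cationic amino acid transporters, read 10.17, 10.68 and 10.31 in log2 intensity on the WT male arrays, 8.36, 8.76 and 8.82 on the WT female arrays and 8.40, 8.34 and 8.22 on the WT castrated arrays. The KO arrays read 10.17, 10.55 and 11.07 in males, 8.43, 8.85 and 8.75 in females and 8.93, 8.61 and 8.52 in castrated males. Every intact male array lay above every other array. The differences were -1.74 (SE 0.21, adjusted p = 1.53e-05) in WT females, -1.92 in KO females, -2.07 (adjusted p = 2.47e-06) in WT castrated males and -1.91 in KO castrated males. Slc7a8, the LAT2 light chain of an exchanger of neutral amino acids, went the other way: 8.59, 8.88 and 9.22 in WT males, 10.26, 9.74 and 9.96 in WT females, 9.999, 9.31 and 9.70 in WT castrated males. Its female and castrated arrays lay above the male arrays, and the differences were 1.09 and 1.18 in WT and KO females and 0.78 and 0.82 in WT and KO castrated males, all passed; a further probe of Slc7a8 gave 1.45 and 1.55 in females, also passed. Slc7a8 lost its call in WT castrated males without WT castrated arrays 1 or 3 or WT male arrays 1 or 2 (adjusted p up to 0.186) and in KO castrated males without KO castrated array 1 or KO male arrays 1 or 3 (adjusted p up to 0.0868). Slc7a2, a cationic amino acid transporter, was lower in females (-0.63, adjusted p = 0.0474, and -0.69, adjusted p = 0.0302), and its castration differences of -0.45 and -0.48 did not pass. Slc7a2 lost its call in WT females in 13 of 18 fits that each left out 1 array (adjusted p up to 0.163) and in KO females without KO female arrays 1, 2 or 3 or KO male arrays 1 or 3 (adjusted p up to 0.15).

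Of the 9 SLC7 genes, 1 rose and 2 fell after castration in each genotype, the further faller being Slc7a14, a lysosomal relative (-1.21 and -1.32). Slc7a14 lost its call in WT castrated males without WT castrated arrays 1, 2 or 3 or WT male arrays 1 or 3 (adjusted p up to 0.151) and in KO castrated males without KO castrated array 1 or KO male array 2 (adjusted p up to 0.0893). The 4 SLC1, 5 SLC38 and 3 SLC16 genes and Slc3a2, the heavy chain that pairs with SLC7 light chains, had 0 calls in any of the 4 comparisons in limma on their brightest probes. On a further probe 3 of the 5 SLC38 genes passed in KO castrated males. These were Slc38a2 (0.67, adjusted p = 0.0186; brightest probe 0.25), Slc38a9 (0.87, adjusted p = 0.0306; brightest probe 0.62) and Slc38a11 (-1.38, adjusted p = 0.0321; brightest probe -0.58). Slc3a2 read -0.56 in WT females and 0.27 in KO females. Among the SLC6 genes, Slc6a8, the creatine transporter, was lower in females in both genotypes (-1.19, adjusted p = 1.82e-05, and -1.08) and after castration (-0.73 and -0.63, both passed). Its WT arrays read 11.52, 11.19 and 11.32 in males, 10.42, 9.86 and 10.17 in females, and 10.62, 10.55 and 10.66 in castrated males. The castrated arrays lay between the others without overlap, but their direct difference from females did not pass. Slc6a6, the taurine transporter, rose after castration by 0.42 in WT (adjusted p = 0.0433) and 0.40 in KO (adjusted p = 0.0427), with sex differences of 0.16 and 0.17 that did not pass. Slc6a6 lost its call in WT castrated males in 8 of 18 fits that each left out 1 array (adjusted p up to 0.181) and in KO castrated males in 8 of 18 fits that each left out 1 array (adjusted p up to 0.177).

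Of the 6 SLC2 sugar carriers, 1 passed, in all 4 comparisons. Slc2a4 encodes GLUT4, the glucose transporter that insulin brings to the surface of fat and muscle cells. It read 7.24, 7.40 and 7.02 in WT males, 5.32, 5.39 and 5.95 in WT females and 5.83, 6.33 and 6.11 in WT castrated males. The KO arrays read 7.46, 7.02 and 7.003, then 5.90, 5.405 and 5.37, then 5.55, 6.14 and 6.12. No female or castrated array reached the lowest intact male array. The differences were -1.67 (SE 0.24, adjusted p = 0.000155) and -1.60 for sex and -1.13 (adjusted p = 0.00531) and -1.22 for castration, in WT and KO. Adipose markers, of which 4 of the 6 on the array were detected (Fabp4 and Ucp1 were not), summed to 206 to 822 in WT males, 104 to 416 in WT females and 161 to 581 in WT castrated males, ranges that overlap, 0 of them passed in any of the 4 comparisons, and their part in the result was not tested. The other 5 SLC2 genes had 0 calls: Slc2a1, the widespread GLUT1, had differences between 0.04 and 0.15 in the 4 comparisons.

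Slc45a3, known as prostein and as an androgen-regulated gene of the human prostate, read 9.88, 9.48 and 10.19 in WT males, 8.33, 7.995 and 7.83 in WT females and 8.47, 8.89 and 8.82 in WT castrated males. The KO arrays read 10.09, 9.60 and 9.51, then 8.005, 7.94 and 7.73, then 8.40, 8.78 and 8.81. The arrays of the 3 conditions did not overlap in either genotype, with females lowest. Compared directly, castrated males and females did not differ past the threshold for this gene in either genotype. Slc45a3 differed by -1.80 and -1.84 in females (adjusted p = 8.7e-06 and 6.49e-06) and by -1.12 and -1.07 in castrated males (adjusted p = 0.00129 and 0.00161). Slc37a1, an exchanger of glucose 6-phosphate and phosphate, was lower in females of both genotypes (-0.87 and -0.92) and in WT castrated males (-0.95), with -0.19 in KO castrated males, which did not pass; the difference between genotypes did not pass either. Without KO female array 1 its KO female difference was -0.60. Slc37a1 lost its call in WT females without WT female arrays 1, 2 or 3 or WT male arrays 2 or 3 (adjusted p up to 0.0874), in KO females without KO female array 1 or KO male arrays 2 or 3 (adjusted p up to 0.0838) and in WT castrated males without WT castrated array 1 or WT male array 3 (adjusted p up to 0.0567).

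**Figure D2:**
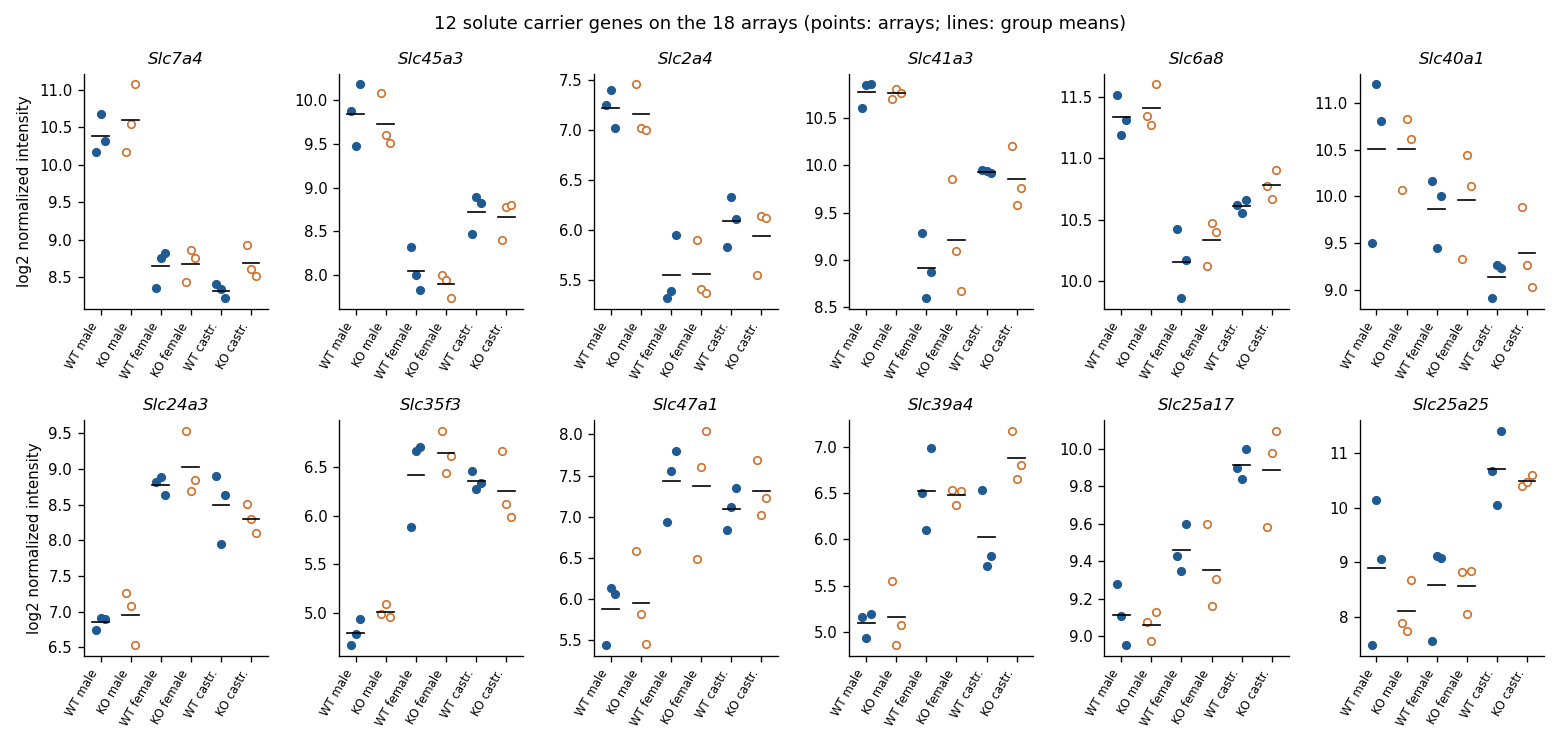
Log2 normalized intensity (y axis) of 12 solute carrier genes on every array, by group; filled blue points are wild-type arrays, open orange points knockout arrays, and lines the means of 3 arrays. All intact male points of Slc7a4, Slc45a3, Slc2a4, Slc41a3 and Slc6a8 lie above all others and those of Slc24a3, Slc35f3 and Slc39a4 below all others, while the WT male points of Slc40a1 and Slc25a25 are spread.

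Among metal carriers, Slc41a3 and the iron carriers Slc40a1 and Slc11a2 fell after castration, while the zinc carriers were split. Slc41a3, a relative of magnesium transporters, read 10.61, 10.85 and 10.86 in WT males, 9.28, 8.59 and 8.87 in WT females and 9.95, 9.94 and 9.92 in WT castrated males. In KO it read 10.71, 10.81 and 10.77, then 9.86, 9.09 and 8.67, then 10.21, 9.58 and 9.76. Males were highest in both genotypes, and in WT the castrated arrays lay in a narrow band between males and females. The sex differences were -1.86 (SE 0.23, adjusted p = 2.51e-05) and -1.56 (adjusted p = 0.00017), and the castration differences -0.84 (adjusted p = 0.0252) and -0.91 (adjusted p = 0.0109). A further probe gave -1.91, -1.46, -0.996 and -1.05, all passed, and another probe gave -1.38, -0.98, -0.64 and -1.29, none passed. The WT castration call of the main probe was lost without any of WT castrated arrays 1 to 3 or WT male arrays 2 and 3 (adjusted p up to 0.0848).

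Slc40a1 encodes ferroportin, the only known exporter of iron from cells. It read 9.50, 11.20 and 10.81 in WT males, 10.16, 9.45 and 9.998 in WT females and 8.91, 9.26 and 9.23 in WT castrated males. In KO it read 10.07, 10.83 and 10.62, then 9.33, 10.44 and 10.12, then 9.89, 9.27 and 9.02. The WT male arrays were widely spread, and their lowest lay above the castrated arrays but within the female range. Slc40a1 changed by -1.37 (SE 0.36, adjusted p = 0.0189) and -1.11 (adjusted p = 0.0393) after castration, and its sex differences of -0.64 and -0.54 did not pass. The WT call was lost without WT castrated array 1 or WT male array 2 or 3 (adjusted p up to 0.11) and the KO call without KO castrated array 2 or 3 or KO male array 2 or 3 (up to 0.154). Macrophages are known to express Slc40a1. Their markers, of which the 4 on the array were all detected, summed to 5189 to 6634 in WT males against 6930 to 8004 in WT castrated males, and to 4734 to 7827 in KO males against 4166 to 5110 in KO castrated males; 1 marker was higher in WT and 1 lower in KO castrated males, and their part in the result was not tested.

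Slc11a2, the DMT1 importer of iron and other divalent metals, was lower in females (-0.99 and -1.43) and in castrated males (-1.09 and -1.07) on its brightest probe, all passed. Its male arrays read 10.61, 9.51 and 10.29 in WT and 10.49, 10.69 and 10.25 in KO, its castrated arrays 8.93, 9.14 and 9.09 in WT and 9.34, 9.35 and 9.53 in KO. The probes of Slc11a2 disagreed: 1 of the other 2 gave the same signs (-0.86 and -1.28 for castration, passed in KO), while the other gave 0.28 and 0.27, which did not pass. All 3 of the 6 iron and divalent metal carriers that passed after castration on their brightest probes fell, in both genotypes. Of all genes, 6.1% fell in WT and 10.1% in KO. Slc48a1, which moves heme out of endosomes, was lower in females (-0.43 and -0.56) and in KO castrated males (-0.43, WT -0.39 not passed). Slc31a2, a copper transporter relative, fell in WT castrated males (-0.76, adjusted p = 0.0441), with -0.31 in KO, which did not pass. Slc31a2 lost its call in WT castrated males in 10 of 18 fits that each left out 1 array (adjusted p up to 0.153). Slc48a1 lost its call in WT females in 7 of 18 fits that each left out 1 array (adjusted p up to 0.194) and in KO castrated males without KO castrated arrays 2 or 3 or KO male arrays 2 or 3 (adjusted p up to 0.113).

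Of the 13 zinc carriers, Slc30a2, which loads zinc into vesicles, was lower in females of both genotypes (-1.34 and -1.43) and in WT castrated males (-1.05), with -0.66 in KO castrated males (adjusted p = 0.0621). Its WT arrays read 10.17, 10.65 and 10.93 in males, 9.15, 9.05 and 9.55 in females and 9.30, 9.82 and 9.47 in castrated males. Slc39a4, a zinc importer known from the intestine, went up: it read 5.17, 4.94 and 5.19 in WT males, where no array detected it, 6.50, 6.10 and 6.98 in WT females and 6.53, 5.71 and 5.83 in WT castrated males. Males were thus below every female and castrated array. It was at least 2.03-fold higher in WT females (adjusted p = 0.00144) and at least 1.43-fold higher in WT castrated males (adjusted p = 0.0314), against the lowest signal of any detected probe on the male arrays. In KO it was higher by 1.31 in females and 1.71 in castrated males. The WT castration call of Slc39a4 was lost without WT castrated array 1 or any WT male array (adjusted p up to 0.186). Slc39a3, a further zinc importer, was higher in females (0.80 and 1.11) and in KO castrated males (0.85, WT 0.35 not passed), and Slc30a7, a zinc carrier of the Golgi, in KO females (0.54, WT 0.25 not passed).

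Carriers of sodium, chloride and calcium split by family. Slc24a3, an exchanger of sodium for calcium and potassium, had the largest rise in females. It read 6.74, 6.91 and 6.89 in WT males, 8.82, 8.88 and 8.64 in WT females and 8.90, 7.95 and 8.63 in WT castrated males. In KO it read 7.25, 7.08 and 6.53, then 9.53, 8.69 and 8.85, then 8.50, 8.30 and 8.10. Intact males lay apart, below every array of the other groups. The differences were 1.93 (SE 0.25, adjusted p = 3.84e-05) and 2.07 (adjusted p = 1.7e-05) for sex and 1.64 (adjusted p = 0.000266) and 1.35 (adjusted p = 0.00131) for castration. Slc8b1, the sodium-calcium exchanger of mitochondria, rose more modestly: 0.78 and 0.66 for sex, 0.61 and 0.49 for castration, all passed. Slc8b1 lost its call in KO females without KO female array 3 or KO male array 2 (adjusted p up to 0.0704), in WT castrated males without WT castrated array 1 or WT male array 2 (adjusted p up to 0.0951) and in KO castrated males in 10 of 18 fits that each left out 1 array (adjusted p up to 0.139).

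The cation-chloride cotransporters moved down or did not pass. Slc12a2 encodes NKCC1, which takes up sodium, potassium and chloride together. It read 11.79, 11.93 and 11.62 in WT males, 10.93, 10.55 and 10.80 in WT females and 10.51, 10.65 and 11.04 in WT castrated males, with no overlap between males and the others. Its differences were -1.02 and -1.05 in WT, and -0.67 (adjusted p = 0.0954) and -0.72 (adjusted p = 0.049) in KO; a further probe gave -1.25, -1.43, -1.01 and -1.07 in the same order, all passed. Slc12a4, the potassium-chloride cotransporter KCC1, fell after castration (-0.81 and -0.76), with sex differences of -0.49 and -0.65 that did not pass. Slc26a4, the anion exchanger pendrin, read 8.91, 8.62 and 8.78 in WT males and 7.91, 7.69 and 7.995 in WT castrated males, and 8.79, 9.60 and 8.74 against 7.69, 7.67 and 7.29 in KO. It changed by -0.91 (adjusted p = 0.0341) and -1.49 (adjusted p = 0.000988), while its sex differences of -0.58 and -0.64 did not pass. Slc12a2 lost its call in WT females without WT female array 2 (adjusted p of 0.0574), in WT castrated males without WT castrated array 1 (adjusted p of 0.0599) and in KO castrated males in 16 of 18 fits that each left out 1 array (adjusted p up to 0.202). Slc12a4 lost its call in WT castrated males in 9 of 18 fits that each left out 1 array (adjusted p up to 0.15) and in KO castrated males without KO castrated arrays 1 or 2 or KO male arrays 1, 2 or 3 (adjusted p up to 0.145). Slc26a4 lost its call in WT castrated males in 6 of 18 fits that each left out 1 array (adjusted p up to 0.117). The scaffold gene Slc9a3r2 was lower in WT females (-0.63, adjusted p = 0.0306) and fell after castration (-0.57 and -0.60), and a further probe of it gave -0.10 in WT females and 0.18 and -0.03 after castration, none passed. Without WT male array 3 its WT differences were -0.38 for sex and -0.32 for castration. Slc9a3r2 lost its call in WT females without WT female arrays 2 or 3 or WT male arrays 2 or 3 (adjusted p up to 0.19), in WT castrated males in 13 of 18 fits that each left out 1 array (adjusted p up to 0.277) and in KO castrated males without KO castrated arrays 1 or 2 or KO male arrays 1 or 3 (adjusted p up to 0.097). Of the 6 bicarbonate carriers 1 passed in the 4 comparisons on its brightest probe, Slc4a8 in KO females (-0.91), for which its other probes gave -0.66 and 0.16, neither passed. After castration 1 of those other Slc4a8 probes passed in both genotypes (-1.29, adjusted p = 0.012, and -1.41, adjusted p = 0.00473), where the brightest gave -0.63 and -0.66 and the remaining one -0.41 and 0.02, none passed. Of the 4 further probes of Slc4a3, 1 passed, in KO castrated males (0.64, adjusted p = 0.0314), where the brightest gave -0.12. Slc4a8 lost its call in KO females without KO female arrays 1 or 2 or KO male arrays 2 or 3 (adjusted p up to 0.117).

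The mitochondrial carrier family, SLC25, was the largest, with 34 genes, and its calls after castration were nearly all rises. In WT castrated males 7 of the 34 rose and 1 fell (all genes 4.62% and 6.1%), and in KO castrated males 10 rose and 1 fell (all genes 7.46% and 10.1%), with medians of 0.19 and 0.12 over the 34 against -0.03 and -0.03 over all genes. The other 149 solute carrier genes had 9 rises and 22 falls in WT (median -0.11) and 11 and 26 in KO (median -0.07). In both genotypes 7 SLC25 genes rose and 1 fell. In females the family had 5 higher and 3 lower in WT (median 0.16) and 4 higher and 1 lower in KO (median 0.11), where 5.3% and 4.83% of all genes were higher and lower in WT and 5.54% and 4.79% in KO. Under median scaling, where the median of all genes itself moved to -0.16 in WT and -0.41 in KO, the family's medians were 0.09 and -0.25 and its calls 1 rise and 1 fall in WT and 1 rise and 2 falls in KO. The count of WT rises was 3 without WT castrated array 1 and 4 without WT castrated array 3 or WT male array 3. The KO castration median of the family was 0.27 without KO castrated array 1 and 0.21 without KO male array 1. The family's higher genes in WT females numbered 1 without WT female array 2 or WT male array 2, 2 without WT female array 3 and 3 without WT female array 1 or WT male array 1 or 3, and those in KO females 2 without KO male array 2. For the other 149 genes the WT rises and falls were 3 and 11 without WT castrated array 1, 6 and 13 without WT castrated array 3, 3 and 14 without WT male array 2 and 5 and 11 without WT male array 3, and the KO ones 7 and 16 without KO male array 2.

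Slc25a25, which exchanges ATP-magnesium for phosphate under control of calcium, had the largest castration rise of all 183 genes. It read 7.48, 10.15 and 9.05 in WT males, 7.56, 9.12 and 9.08 in WT females and 10.68, 10.05 and 11.41 in WT castrated males. In KO it read 7.89, 7.73 and 8.68, then 8.82, 8.06 and 8.84, then 10.41, 10.48 and 10.61. The castrated arrays were the highest, overlapping with 1 of the 3 WT male arrays and with no other. The rise was 1.82 (SE 0.52, adjusted p = 0.03) in WT and 2.40 (adjusted p = 0.00394) in KO, while the sex differences of -0.31 and 0.47 did not pass. Without WT male array 1 the WT rise was 1.11, and that call was lost without WT castrated array 1 or 3 or WT male array 1 or 3 (adjusted p up to 0.137); the KO call passed in all 18 such fits.

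Slc25a17, which despite its name carries coenzyme A, FAD and NAD into peroxisomes, had tighter arrays. It read 9.28, 9.11 and 8.95 in WT males, 9.43, 9.35 and 9.60 in WT females and 9.90, 9.84 and 9.999 in WT castrated males, and the KO castrated arrays read 9.58, 9.98 and 10.09. Castrated males lay above intact males in both genotypes, by 0.80 (SE 0.15, adjusted p = 0.00165) and 0.83 (adjusted p = 0.00109), and its sex differences of 0.35 and 0.30 did not pass. Slc25a29, a carrier of basic amino acids, rose by 1.16 and 1.30 after castration and 0.86 and 1.18 in females. Slc25a35, an orphan member, rose by 1.07 and 1.09 after castration and 0.92 and 1.41 in females; without WT female array 3 the WT female value was 0.55. Slc25a33, a carrier of pyrimidine nucleotides, rose by 0.73 and 0.56 after castration and 0.66 and 0.62 in females, with WT arrays at 9.49, 9.68 and 9.66 in males, 10.22, 10.33 and 10.26 in females and 10.46, 10.21 and 10.33 in castrated males. Slc25a45 (0.57 and 0.82) and Slc25a12, the aspartate-glutamate carrier of the malate shuttle (0.54 and 0.55), completed the 7. Slc25a29 lost its call in WT females in 11 of 18 fits that each left out 1 array (adjusted p up to 0.212) and in KO females without KO male array 2 (adjusted p of 0.0541). Slc25a35 lost its call in WT females without WT female arrays 2 or 3 or WT male arrays 1, 2 or 3 (adjusted p up to 0.213) and in WT castrated males without WT castrated arrays 1 or 3 (adjusted p up to 0.0625). Slc25a45 lost its call in WT castrated males in 12 of 18 fits that each left out 1 array (adjusted p up to 0.259). Slc25a12 lost its call in WT castrated males without WT castrated arrays 1 or 3 or WT male array 3 (adjusted p up to 0.0944) and in KO castrated males without KO castrated array 3 or KO male array 2 (adjusted p up to 0.0674). Slc25a16, Slc25a28, the mitochondrial iron carrier mitoferrin 2, and Slc25a47 rose in KO castrated males (0.90, 0.80 and 0.75), with 0.47, 0.43 and 0.37 in WT that did not pass, and the difference between genotypes did not pass for any of them. Slc25a47 lost its call in KO castrated males without KO castrated arrays 1 or 2 or KO male arrays 1 or 2 (adjusted p up to 0.173).

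The family member that fell was Slc25a30, an orphan carrier first described in kidney mitochondria. It read 8.88, 9.59 and 9.49 in WT males, 8.02, 7.73 and 7.45 in WT females and 8.39, 7.73 and 8.25 in WT castrated males, so that males lay above both other groups. The differences were -1.58 (adjusted p = 0.000263) and -0.85 (adjusted p = 0.0319) for sex and -1.20 (adjusted p = 0.00357) and -1.27 (adjusted p = 0.00174) for castration. Slc25a30 lost its call in KO females without KO female arrays 2 or 3 or KO male arrays 2 or 3 (adjusted p up to 0.171). Slc25a5, the ADP/ATP carrier, differed by 0.03 to 0.14 in the 4 comparisons, none passed. Slc25a3, the phosphate carrier, was lower in WT females (-0.70, adjusted p = 0.0345) with -0.37, -0.60 and -0.48 in KO females, WT castrated and KO castrated males, which did not pass. Its second probe passed in WT females (-1.31, adjusted p = 0.00248) and WT castrated males (-0.93, adjusted p = 0.0278), with -0.82 and -0.05 in KO that did not pass. Slc25a34 was at least 1.51-fold lower in WT females than in WT males (adjusted p = 0.0234). Slc25a3 lost its call in WT females without WT female arrays 2 or 3 or WT male arrays 1, 2 or 3 (adjusted p up to 0.132). Slc25a34 lost its call in WT females without WT female array 3 or WT male arrays 1 or 2 (adjusted p up to 0.123).

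**Figure D3:**
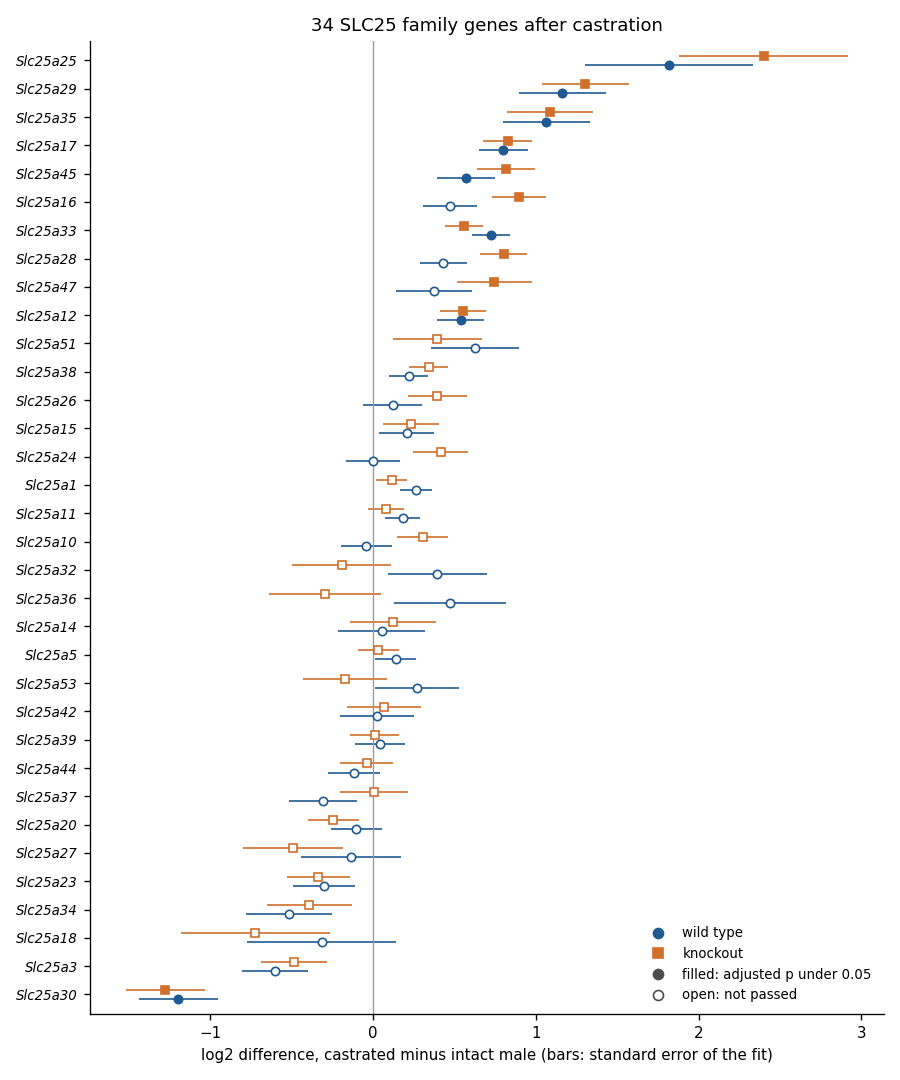
Log2 difference of castrated minus intact males (x axis) for the 34 SLC25 genes, sorted by the mean of both genotypes; blue circles are wild type, orange squares knockout, bars the standard error of the fit, and filled symbols passed at an adjusted p under 0.05. All filled symbols but those of Slc25a30 lie to the right of 0, with Slc25a25 farthest at 1.82 and 2.40.

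Carriers of vitamins, choline and drugs also differed. Slc46a1, the proton-coupled folate transporter, read 9.54, 9.24 and 9.12 in WT males, 8.86, 8.75 and 8.74 in WT females and 8.69, 8.27 and 8.26 in WT castrated males. It changed by -0.89 (SE 0.17, adjusted p = 0.002) after castration in WT and by -0.62 (adjusted p = 0.0168) in KO, and its sex differences of -0.51 and -0.09 did not pass. Slc5a6, which takes up biotin and pantothenate with sodium, was lower in females (-0.78 and -0.90) and castrated males (-0.91 and -1.06), all passed. WT male array 3 read 11.31 against 10.44 and 10.28 on the other WT male arrays, and without it the WT differences were -0.46 and -0.59. Slc5a6 lost its call in WT females without WT female arrays 2 or 3 or WT male array 3 (adjusted p up to 0.16) and in WT castrated males without WT castrated array 1 or WT male array 3 (adjusted p up to 0.0587). Slc46a1 lost its call in KO castrated males without KO castrated array 1 or KO male arrays 2 or 3 (adjusted p up to 0.0624). Slc44a2, a choline transporter-like protein, differed by -0.66 and -0.66 in females and -0.61 and -0.63 in castrated males, with WT arrays at 10.60, 11.02 and 10.78 in males, 10.11, 10.11 and 10.19 in females and 10.17, 10.19 and 10.21 in castrated males; neither of its other probes passed, and 1 gave 0.17 for WT castration.

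Slc47a1, the MATE1 extruder of drugs and organic cations, read 5.44, 6.13 and 6.06 in WT males, 6.94, 7.56 and 7.80 in WT females and 6.83, 7.12 and 7.35 in WT castrated males. In KO it read 6.59, 5.82 and 5.46, then 6.48, 7.61 and 8.04, then 7.69, 7.02 and 7.22. Males lay below females and castrated males in WT, while KO males and KO females overlapped. It was higher by 1.56 (SE 0.36, adjusted p = 0.00852) and 1.42 (adjusted p = 0.0156) in females and by 1.22 (adjusted p = 0.0367) and 1.35 (adjusted p = 0.0152) in castrated males. Slc47a1 lost its call in WT females without WT female array 3 (adjusted p of 0.0552), in KO females without KO female arrays 2 or 3 or KO male arrays 2 or 3 (adjusted p up to 0.0911), in WT castrated males in 6 of 18 fits that each left out 1 array (adjusted p up to 0.127) and in KO castrated males without KO castrated array 1 or KO male arrays 2 or 3 (adjusted p up to 0.0758). Slc22a18, an imprinted organic cation transporter-like gene, was higher too (1.25 and 0.74 for sex, 0.75 and 0.88 for castration, all passed). Slc29a4, a transporter of monoamines and adenosine, was lower (-0.97 and -0.74 for sex, -0.86 and -1.05 for castration, all passed), and Slc29a3, a lysosomal nucleoside transporter, rose in KO castrated males (0.56, WT 0.24 not passed). Slc22a18 lost its call in KO females without KO female arrays 1 or 3 or KO male array 1 (adjusted p up to 0.105) and in WT castrated males without WT castrated arrays 1, 2 or 3 or WT male arrays 2 or 3 (adjusted p up to 0.0907). Slc29a4 lost its call in WT females without WT female array 2 (adjusted p of 0.0586), in KO females in 8 of 18 fits that each left out 1 array (adjusted p up to 0.206) and in WT castrated males without WT castrated arrays 2 or 3 or WT male array 3 (adjusted p up to 0.0715). Slc29a3 lost its call in KO castrated males without KO male array 2 (adjusted p of 0.0513).

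In the SLC35 and SLC17 families, 2 faint genes rose from below detection. Slc35f3, an orphan reported as a thiamine transporter, was detected on 0 of 6 intact male arrays and on all 12 others. It read 4.66, 4.78 and 4.93 in WT males, 5.89, 6.67 and 6.71 in WT females and 6.46, 6.28 and 6.34 in WT castrated males. It was at least 1.88-fold and 2.32-fold higher in WT and KO females (adjusted p = 0.000154 and 0.000147) and at least 1.81-fold and 1.77-fold higher in WT and KO castrated males (adjusted p = 0.000271 and 0.0017). Slc17a6 encodes VGLUT2, which fills synaptic vesicles with glutamate, and no intact male array detected it. It was at least 1.10-fold and 1.56-fold higher in WT and KO females and at least 1.48-fold and 1.31-fold higher in WT and KO castrated males. Slc17a6 lost its call in WT females in 13 of 18 fits that each left out 1 array (adjusted p up to 0.228). Slc35c1, which brings GDP-fucose into the Golgi, was higher in females (0.69 and 0.62) and read 0.26 and 0.06 after castration, which did not pass. Slc35c1 lost its call in WT females without WT male array 2 (adjusted p of 0.0741) and in KO females without KO female arrays 2 or 3 or KO male arrays 2 or 3 (adjusted p up to 0.094). Of the 21 SLC35 genes, 14 passed in none of the 4 comparisons. At least 1 of the 4 was passed by 35% of the 183 genes and 25.2% of all genes.

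The starts of these genes were searched for motifs of steroid hormone receptors and of cAMP signalling. RefSeq windows of 300 bases around the start (GRCm38.p6) were at hand for 145 of the 183 genes. The motif TGTTCT on either strand, the hexamer bound by the androgen and glucocorticoid receptors, stood in a window of 21.3% of all 27025 genes and of 11.7% of the 145 genes. It stood in 4 of the 11 genes with a window that rose after castration in both genotypes (Slc22a18, Slc25a17, Slc25a45 and Slc35f3) and in 2 of the 11 that fell (Slc26a4 and Slc46a1). The full palindrome of steroid receptors, which holds that hexamer on both strands, stood in 0 of the 190 windows of the 145 genes and 3 of the 32851 windows of all genes. The cAMP response element TGACGTCA stood in 1.79% of all windows and in 1 of the 3 windows of Slc25a25. The SF-1 site AAGGTCA stood in 4.72% of all windows and in a window of 5.38% of all genes. It stood in none of the 11 rising and 11 falling genes that had a window, too few to show that it is rarer there. Such matches are letters in these windows only. The window of Slc25a25 that holds the cAMP element lies at chr2:32424017-32424316 on the minus strand, with the motif beginning 150 bases before the start. Those of Slc25a17 (chr15:81360716-81361015, minus strand, motifs beginning 218 and 110 bases before the start) and Slc35f3 (chr8:126138875-126139174, plus strand, 139 bases before) are shown as rising genes with the hexamer. That of Slc46a1 (chr11:78465451-78465750, plus strand, 236 bases before) is shown as a falling one, all 5′ to 3′ with the motif in capitals, where AGAACA is the hexamer read from the other strand.
Slc25a25: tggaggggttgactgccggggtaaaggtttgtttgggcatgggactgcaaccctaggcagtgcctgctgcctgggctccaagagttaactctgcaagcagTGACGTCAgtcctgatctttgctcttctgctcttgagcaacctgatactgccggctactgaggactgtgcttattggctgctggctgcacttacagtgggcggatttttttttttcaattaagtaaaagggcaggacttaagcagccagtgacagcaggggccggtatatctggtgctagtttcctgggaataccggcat
Slc25a17: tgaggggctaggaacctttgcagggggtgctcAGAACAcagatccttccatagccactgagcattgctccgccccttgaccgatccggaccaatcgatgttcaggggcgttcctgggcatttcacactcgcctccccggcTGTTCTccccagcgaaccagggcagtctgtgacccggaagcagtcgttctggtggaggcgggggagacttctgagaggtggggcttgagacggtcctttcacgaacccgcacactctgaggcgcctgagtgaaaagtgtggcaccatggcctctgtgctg
Slc35f3: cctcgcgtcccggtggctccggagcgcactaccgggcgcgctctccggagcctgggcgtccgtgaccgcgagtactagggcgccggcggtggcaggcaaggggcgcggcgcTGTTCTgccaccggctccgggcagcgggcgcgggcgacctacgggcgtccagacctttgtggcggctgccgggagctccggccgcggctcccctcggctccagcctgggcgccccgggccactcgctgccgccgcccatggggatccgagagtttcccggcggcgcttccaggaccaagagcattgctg
Slc46a1: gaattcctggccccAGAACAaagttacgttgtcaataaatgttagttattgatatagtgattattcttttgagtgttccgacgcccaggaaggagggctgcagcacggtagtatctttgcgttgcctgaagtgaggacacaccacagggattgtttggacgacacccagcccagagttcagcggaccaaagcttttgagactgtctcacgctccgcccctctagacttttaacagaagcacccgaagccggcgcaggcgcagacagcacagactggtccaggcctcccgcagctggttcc

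Slc6a4 and 6 further genes that passed after castration in KO and not in WT are given with the markers of chromaffin cells. Slc22a21, Slc35e4 and Slc48a1 also fell in KO castrated males without passing in WT, and are given in other paragraphs. No measurement here places any of these genes in chromaffin cells. Slc6a4, the serotonin transporter, read 10.59, 11.06 and 10.56 in KO males, 11.75, 10.66 and 10.71 in KO females and 9.47, 9.76 and 9.06 in KO castrated males. The WT arrays read 10.53, 10.18 and 10.64, then 10.88, 9.71 and 10.33, then 10.06, 10.13 and 10.02. The KO castrated arrays lay below every KO male and KO female array and below every WT castrated array. Slc6a4 changed by -1.30 in KO (SE 0.28, adjusted p = 0.00408), with -0.38 in WT that did not pass, and the difference between genotypes of -0.92 did not pass (adjusted p = 0.966). A second, also detected probe of Slc6a4 gave -0.29 in KO (SE 0.60, adjusted p = 0.80), so the fall rests on 1 of 2 probes.

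The 6 further genes named next, chosen with Slc6a4 after their values were seen, fell in KO castrated males without passing in WT: Slc24a2, an exchanger of sodium for calcium and potassium (-1.34, WT -0.51), Slc10a4, found in vesicles of monoamine nerve cells (-1.16, WT -0.48), Slc10a4l (-1.03, WT -0.60), Slc35d3 (-0.87, WT -0.21), Slc35g2 (-0.85, WT -0.39) and Slc22a17, a receptor for lipocalin 2 (-0.80, WT -0.39). The difference between genotypes passed for none of them. The 5 chromaffin markers summed to 62245 to 82376 in WT males and 50999 to 55993 in WT castrated males, and to 72985 to 82466 in KO males and 36116 to 45313 in KO castrated males. After castration 2 of the 5 fell in WT and 4 of the 5 in KO. The marker Pnmt went the other way in WT, with overlap. It read 13.54, 11.28 and 12.47 in WT males and 13.12, 13.41 and 13.02 in WT castrated males. The part of the chromaffin markers in the fall of these carriers was not tested. The KO calls of Slc6a4, Slc24a2 and Slc22a17 passed in all 18 fits that each left out 1 array. Slc10a4 lost its call in KO castrated males without KO male array 2 (adjusted p of 0.0752). Slc10a4l lost its call in KO castrated males without KO castrated array 3 or KO male array 2 (adjusted p up to 0.102). Slc35d3 lost its call in KO castrated males without KO castrated arrays 2 or 3 or KO male arrays 1 or 2 (adjusted p up to 0.178). Slc35g2 lost its call in KO castrated males without KO castrated arrays 1 or 3 or KO male arrays 1 or 2 (adjusted p up to 0.105).

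**Figure D4:**
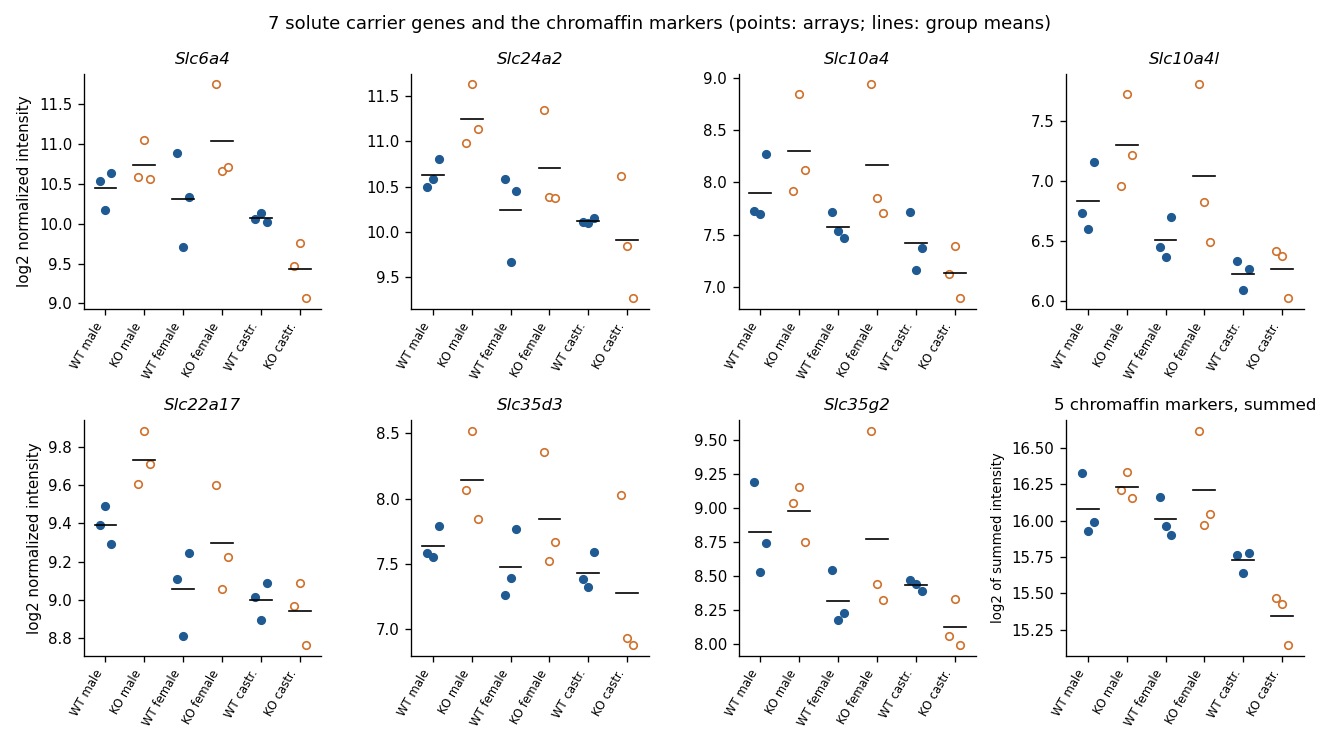
Log2 normalized intensity (y axis) on every array of 7 of the solute carrier genes that fell in castrated knockout males, chosen after their values were seen. The last panel shows log2 of the summed intensity of 5 chromaffin markers on every array. Filled blue points are wild type, open orange points knockout, and lines the means of 3 arrays. In the last panel the castrated arrays lie below the intact male arrays in both genotypes, with the knockout castrated arrays lowest.

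Several further genes passed after castration in 1 genotype and missed the threshold in the other: Slc66a2 (-0.94), Slc15a3, a carrier of histidine and peptides in lysosomes (-0.80), and Slc35e3 (-0.39) fell in WT, and Slc22a21 (at least 1.14-fold) and Slc35e4 (adjusted p = 0.0027) fell in KO. Neither was detected on a KO castrated array, and for Slc35e4 no bound above 1-fold could be given. The genotype difference passed for none of them. Slc15a3 lost its call in WT castrated males without WT castrated arrays 2 or 3 or WT male arrays 2 or 3 (adjusted p up to 0.0959). Slc35e3 lost its call in WT castrated males in 11 of 18 fits that each left out 1 array (adjusted p up to 0.128). In the sex comparison Slc35e3 (-0.56), Slc66a2 (-0.54) and Slc35b3 (0.42; a further probe passed in KO, at 0.41) passed in WT and not in KO, and Slc44a3 (0.81), Slc45a4 (0.75) and Slc27a3, a fatty acid transport protein (-0.76), in KO and not in WT, with 0 calls for a difference between genotypes. Without KO female array 1 the difference of Slc27a3 was -0.46. The other probes of Slc45a4 gave -0.07, not passed, and 0.85, passed. Slc27a3 lost its call in KO females without KO female array 1 or KO male arrays 1 or 3 (adjusted p up to 0.0791). Slc45a4 lost its call in KO females in 8 of 18 fits that each left out 1 array (adjusted p up to 0.172). Slc66a2 lost its call in WT females in 13 of 18 fits that each left out 1 array (adjusted p up to 0.132). Slc35b3 lost its call in WT females in 13 of 18 fits that each left out 1 array (adjusted p up to 0.186).

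Castrated males and females, each set against the same male arrays above, were also compared directly. In WT, 0 of 183 genes passed in limma (all genes 0.328%) and 18 had an unadjusted p under 0.05 (9.84%, all genes 9.32%). In both genotypes 0 passed in the same direction (all genes 0.173%, with 0.0867% higher and 0.0867% lower). Slc41a3, which stood between males and females after castration, gave 1.02 for castrated males minus females (SE 0.23, adjusted p = 0.0685), with no overlap, and 0.64 in KO (adjusted p = 0.166). Slc25a25 gave 2.13 (SE 0.52, adjusted p = 0.0956) in WT and 1.93 (adjusted p = 0.0726) in KO, where every castrated array lay above every female array, and neither passed. Slc23a2, a vitamin C transporter, read 8.39, 7.79 and 8.53 in WT castrated males and 7.57, 6.90 and 7.39 in WT females, a difference of 0.95 (adjusted p = 0.102). In KO 2 genes passed (all genes 1.53%): Slc6a4 was lower in castrated males (-1.61, SE 0.28, adjusted p = 0.00712), for which its second probe gave 0.03, and Slc25a24, an ATP-magnesium/phosphate carrier, was higher by 0.71 (adjusted p = 0.0381). Slc25a24 lost its call in this comparison in 9 of 18 fits that each left out 1 array (adjusted p up to 0.155), while that of Slc6a4 passed in all 18 fits that left out an array.

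The knockout itself moved no solute carrier gene past the threshold. In intact males, females, castrated males and their mean, 0 of 183 genes passed in limma (all genes 0.0%, 0.0%, 0.0% and 0.00964%, the last being Ephb6 alone). Ephb6 itself did not pass in any single condition. It gave -0.55, -1.47 and -1.41 in intact males, females and castrated males (adjusted p = 0.9997, 0.235 and 0.388 in limma). As these tests did not call the disrupted gene, their 0 calls cannot show that solute carriers were unchanged. At an unadjusted p under 0.05 there were 4, 6, 12 and 9 genes (2.19%, 3.28%, 6.56% and 4.92%), against 2.65%, 2.80%, 6.26% and 3.83% of all genes. The mean knockout effect ran from -0.50 to 0.43 over the 183 genes, with a median SE of 0.13. The smallest p-values of the mean effect belonged to Slc43a1, a neutral amino acid transporter (-0.33), Slc6a6 (-0.20), Slc50a1 (0.23), Slc35b2 (0.24) and Slc39a11 (0.18), each with adjusted p = 0.979.

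In intact males the smallest p-values were those of Slc4a1 (-0.87), Slc43a1 (-0.50), Slc22a17 (0.34), Slc35f2 (at least 1.01-fold higher in KO, and not detected on a WT male array) and Slc37a1 (-0.49). In females they were those of Slc39a11 (0.43), Slc6a4 (0.73), Slc35e1 (0.30), Slc29a4 (0.51) and Slc37a1 (-0.54). In castrated males Slc39a4 (0.85), Slc9a8 (-0.82), Slc27a3 (0.55), Slc39a3 (0.42) and Slc66a2 (0.42) came first, with adjusted p = 0.751. Slc39a11, a zinc transporter, read 10.36, 10.21 and 10.07 in KO females against 9.65, 9.73 and 9.97 in WT females. The difference did not pass (adjusted p = 0.999968 in limma). These groups do not overlap, but the gene was picked by its small p in this same comparison, so that adds no evidence. A test of whether the sex or the castration difference itself differed between genotypes gave 0 calls in limma for either (all genes 0.0%). For sex and castration, 5 and 8 genes had an unadjusted p under 0.05 (2.73% and 4.37%, all genes 1.73% and 4%). The smallest p in both belonged to Slc4a1, the anion exchanger of red blood cells, with differences of 1.24 (SE 0.41) and 1.504 (SE 0.41). Next came Slc25a30 (0.74) and Slc39a11 (0.37) for sex, and Slc9a8 (-1.22) and Slc66a2 (0.64) for castration. Slc4a1 read 6.53, 5.88 and 6.52 in WT males and 5.41, 6.09 and 5.29 in WT castrated males, but 5.19, 5.66 and 5.47 in KO males and 6.37, 5.60 and 6.72 in KO castrated males. Red blood cell markers, of which Slc4a1 was 1 of 3 on the array, summed to 19592 to 28136, 11924 to 23483, 16121 to 25782 and 20496 to 24452 in the same order, and their part in these differences was not tested.

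In all, 64 of the 183 genes passed in at least 1 of the 4 sex and castration comparisons (35%, all genes 25.2%) and 119 in none; the median SE of a difference was 0.23. Of 33 families or groups of families, 7 with 17 genes between them had 0 calls. These counts rest on the brightest probe of each gene: where it did not pass, further probes passed in 16 of 224 values, from 12 genes. The highest probe intensities, which do not rank RNA levels between genes, were those of Slc6a6, Slc25a5, Slc25a3, Slc25a28, Slc27a3, Slc4a3, Slc48a1, Slc29a1, Slc25a39 and Slc39a7, of which Slc25a5, Slc4a3, Slc29a1, Slc25a39 and Slc39a7 passed in none of the 4. Examples of small differences, chosen after their values were seen, are Slc2a1 (0.04, 0.12, 0.06 and 0.15 for sex in WT and KO and castration in WT and KO) and Slc25a39, a mitochondrial carrier of glutathione (-0.02, 0.03, 0.04 and 0.01). A p above the threshold does not show that these levels were equal.

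Transporters and partners outside the Slc symbols passed at about the share of all genes: of 65 tested, 8 and 6 passed for sex (12.3% in WT and 9.23% in KO, all genes 10.1% and 10.3%) and 8 and 12 for castration (12.3% and 18.5%, all genes 10.7% and 17.6%). Of 48 ABC transporters 25 were tested, and Abcb1b, a drug efflux pump, was lower in females of both genotypes (-1.19 and -0.85), while after castration 1 rose and 1 fell in WT and 1 rose and 3 fell in KO. Abcc4, an efflux pump of organic anions, fell in both (-0.49 and -0.49). Of 3 tested Slco organic anion transporters, Slco2b1 was higher in WT females (0.69) and WT castrated males (0.67), and none passed in either KO comparison. Among 19 tested carriers without an Slc symbol, Mfsd3 was higher in females (0.89 and 1.12) and Ank, an exporter linked to pyrophosphate, lower (-0.64 and -0.64). Among 7 tested subunits of the sodium-potassium ATPase, whose sodium gradient drives many solute carriers, Atp1b2 was lower in all 4 comparisons (-1.01 and -0.85 for sex, -1.18 and -1.03 for castration), and Atp1b1 fell in KO castrated males (-1.38, WT -0.60 not passed). Of 11 tested partners of solute carriers, Emb, a chaperone of monocarboxylate transporters, was higher in WT females (1.43), and none passed in KO females. Bsg, a second such chaperone, fell in KO castrated males (-1.11).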

How the data were processed

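Total RNA of adrenal glands was hybridised to Illumina bead arrays, 18 arrays in 6 groups of 3. The authors deposited the bead intensity of each of 45281 probes, not normalized and with a detection p-value per probe and array, per the file headers, along with normalized intensities. The submitters' processing notes name GenomeStudio, with no version given in the sources used here. Probe names came from the platform's annotation: 34885 probes had 1 gene symbol, 18 several and 10378 none, and 34807 matched a RefSeq gene.

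Intensities were corrected for background and quantile normalized with neqc (limma 3.58.1, R 4.3.3, offset 16), and values are log2 of the result. Probes detected at p under 0.01 on 3 arrays were kept (18158), and each gene was read by its brightest such probe, leaving 10375 genes; levels of different probes were not compared. One limma fit over the 6 groups (12 residual degrees of freedom, eBayes with a trend) gave all differences, with Benjamini-Hochberg adjustment. Where no array of the dimmer group detected a gene, a bound is given against the lowest signal of any detected probe. Precision rests on 3 arrays a group, with a median SE of 0.206 over all genes. Genes were named by these rules: the 10 brightest probes, the largest non-overlapping differences in WT, all genes that passed in both genotypes, the smallest p-values for the knockout and for genotype differences, up to 4 genes a family by smallest p, and those at the edge of the detection rule. The members and gene lists were chosen with earlier results of these data known. Alternatives were the normalization, background, filter, array weights, a replicate block, other probes and leaving out arrays. The fitting script was tested on simulated data.

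Replicate numbers were checked for pairing: samples of different groups with the same number had a median correlation of 0.0042 in their deviations from group means (-0.230 to 0.234, above 0.1 in 6 of 45 pairs), so the numbers were taken not to pair samples.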

Additional observations from a re-analysis of the deposited data

How the results depend on the processing

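Of 4783 recomputed values of 184 named differences, 0 changed sign with the normalization, filter, weights, block or arrays left out, and median scaling left 93 of the 158 that had passed no longer past the threshold. Reported counts were 36 and 33 genes for sex (WT and KO), 39 and 48 for castration and 0 and 2 for castrated males against females. Median scaling gave 12, 12, 12, 39, 0 and 5, and array weights 63, 55, 66, 75, 7 and 18. Without the filter on dim probes, over 353 Slc genes, the counts were 27, 26, 27, 42, 0 and 2, and 36 of the 158 named calls were lost. The authors' normalized values gave 34, 33, 34, 47, 0 and 2, with 8 named calls lost. The replicate block, on numbers that do not pair the samples, gave 32, 32, 37, 47, 0 and 1. The cause of these changes was not tested. Leaving out castrated KO array 1 and female KO array 1, an alternative added after seeing the data, gave 50, 41, 51, 56, 1 and 2. Leaving out 1 array gave 22 to 41, 23 to 38, 18 to 46, 32 to 54, 0 to 1 and 1 to 4, and 0 to 0 for each knockout and genotype-difference comparison. The lowest counts for sex in WT were 22 without WT female array 2 or WT male array 2, and for castration in WT 18 without WT castrated array 1 and 21 without WT male array 3. With median scaling the all-gene median itself was -0.41 for castration in KO and -0.16 in WT.

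Other probes of the same genes gave 71 further values of these differences: 36 had the same sign but were no longer past the threshold, 23 kept sign and side, and 12 had the opposite sign. The 12 were Slc11a2 for sex (0.31 and 0.20) and castration (0.28 and 0.27), Slc45a4 (-0.072) and Slc4a8 (0.16) in KO females, and Slc44a2 (0.17) and Slc9a3r2 (0.18) in WT castrated males. They were also Slc6a4 between KO castrated males and females (0.029), and, for the knockout, Slc22a17 in males (-0.091), Slc6a4 in females (-0.77) and Slc6a6 over all conditions (0.0049). Dim genes near the detection limit have only bounds, and 3 arrays a group leave small differences undetected.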
